A study of Mus musculus with 23 samples.

Results

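Genes of the tumour necrosis factor (TNF) ligand and receptor superfamily were followed through 23 mouse RNA sequencing libraries. The members were all genes of the deposited table whose symbol is Tnfsf (ligands) or Tnfrsf (receptors) with a number, 31 of 22488 symbols. They comprised 11 ligand and 20 receptor genes. A group of 12 libraries was made from CD3+ T cells of mouse spleen, 3 each from 100, 500, 1000 and 10000 cells, and 11 were made from weighed amounts of RNA, 2 from 0.1 ng and 3 each from 0.5, 1 and 5 ng. All samples carry the labels strain C57 and age 6 to 18 weeks, and no treatment or genotype is named. The design text takes the RNA from mouse spleen, whereas the labels of the RNA samples name raw 264.7, a mouse macrophage cell line. The series asks how a low-input library protocol, EASY-RNAseq, performs as the input shrinks. Reverse transcription starts from oligo-dT, and the Tn5 transposase then fragments the cDNA and adds adapters. Nothing in the labels says whether the libraries of a group came from separate mice, so p-values measure the spread between these libraries, which may be technical.

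Totals ran from 1737067 to 7908638 counts per library, and levels are given as CPM, counts per 1000000 counts of the library. The labelled T cells carried T cell genes: 11 T cell markers summed to between 3344 and 6092 CPM in the 12 T cell libraries and to between 1172 and 1571 CPM in the 11 RNA libraries. The RNA carried genes of many blood cell types besides those of macrophages. Its 9 B cell markers summed to between 20885 and 26840 CPM, 9 macrophage and monocyte markers to between 2378 and 3081 CPM, and Cd3e, a subunit of the T cell receptor complex, lay at 98.2 ± 2.55 CPM in 5 ng of RNA (SD, n = 3). Replicate 3 of the 100-cell group stood apart from the other T cell libraries. Its B cell marker sum was 11572 CPM where the other 11 ranged from 941 to 1494, and its T cell marker sum of 3344 CPM was the lowest. Its sums of neutrophil markers (6 genes, 1847 CPM), dendritic cell markers (7 genes, 1559 CPM), macrophage and monocyte markers (1357 CPM), erythroid markers (6 genes, 1297 CPM) and plasma cell markers (6 genes, 971 CPM) were also the highest of the T cell libraries. The RNA libraries reached 4720, 4121, 3081, 4073 and 2461 CPM for these lists. Sums of NK cell (5 genes), platelet (5 genes) and stromal and endothelial (8 genes) markers reached at most 234, 30.3 and 255 CPM in T cells and 307, 107 and 372 CPM in RNA. Several results that rest on replicate 3 are given with and without it.

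TNF superfamily ligands are mostly trimers on the cell surface or shed from it, and they bind receptors that recruit TRAF adaptors or, where the receptor has a death domain, FADD and caspases. In the spleen the family divides by cell type. BAFF and APRIL act on B cells and plasma cells, a set of ligand and receptor pairs such as OX40 ligand with OX40 gives costimulation to T cells, and TNF, TRAIL, TWEAK and RANK ligand act on many cells. Several family genes sit side by side in the genome. In RefSeq's gene order, 15 of the 31 members had another family gene as the nearest protein-coding gene on a side, in 10 adjacent pairs, among them Tnfrsf4 with Tnfrsf18, Tnfrsf1b with Tnfrsf8, and the run Tnfrsf26, Tnfrsf22, Tnfrsf23.

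Comparing 10000 T cells with 5 ng of RNA asked how the family differs between the materials at the largest inputs. All 3 receptors of BAFF and APRIL were lower in the T cells. The costimulatory receptors Tnfrsf25, Tnfrsf9 and Tnfrsf18 and the TRAIL receptors Tnfrsf10b, Tnfrsf22 and Tnfrsf23 were higher. Of the 31 members 25 had enough counts to be tested. The quasi-likelihood test of edgeR was used, and p-values were adjusted over all genes tested by the Benjamini-Hochberg method. An adjusted p under 0.05 was reached by 17 of the 25, 11 higher and 6 lower in T cells. Among all 14425 genes tested 56.0% passed, 28.7% higher and 27.3% lower, so that a call by itself is common here. The median log2 fold change was 0.13 over the members tested and 0.03 over all genes. With library sizes alone as the scaling, the median of all genes was 0.15, and 17 members passed, again 11 higher and 6 lower. The 6 members left out for low counts were Tnfrsf11b, Tnfsf12, Tnfsf13, Tnfsf15, Tnfsf18 and Tnfsf4. Of ligands 6 were tested and 3 were higher in T cells, and of receptors 19 were tested, with 8 higher and 6 lower. Both the cells and their preparation differ between the materials, and these cannot be told apart. In bulk RNA, fewer cells of a type and less RNA per cell cannot be told apart either.

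**Figure D1:**
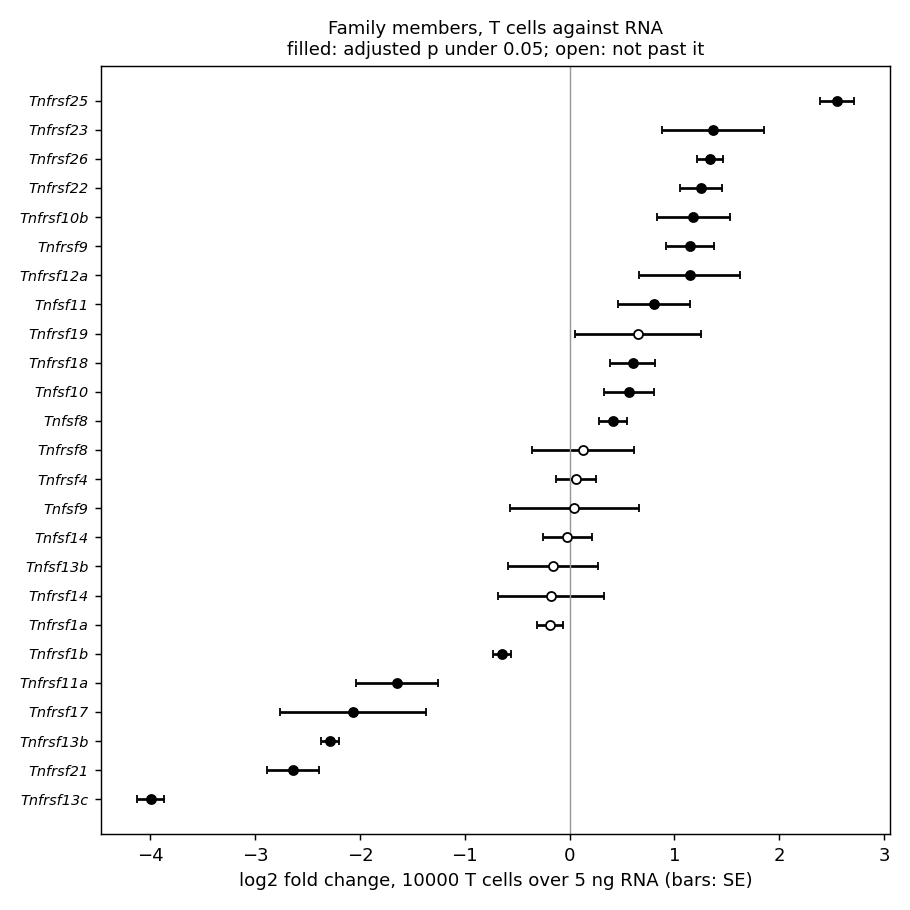
Log2 fold change of each of the 25 tested members, 10000 T cells over 5 ng of RNA (x axis, bars are SE, n = 3 libraries each), with filled points for an adjusted p under 0.05 by edgeR. Tnfrsf13c lies lowest at -4.00 and Tnfrsf25 highest at 2.55, and 8 members have open points.

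The smaller inputs repeated the comparison with other libraries. Between 1000 T cells and 1 ng, 9 of 21 tested members passed, 5 higher and 4 lower, where 40.0% of all genes passed (20.1% higher, 20.0% lower). Between 500 T cells and 0.5 ng, 7 of 21 passed, 3 higher and 4 lower, where 37.1% of all genes passed (19.0% higher, 18.1% lower). Between 100 T cells and 0.1 ng, 0 of 23 tested members passed in edgeR, where 7 of 13073 genes (0.0535%) passed. An unadjusted p under 0.05 was reached by 6 of the 23 and by 15.7% of all genes. DESeq2 called 2 of 22 members there, Tnfrsf13c and Tnfsf14, and 684 of 13425 genes. Without replicate 3 of the 100-cell group edgeR called 2 of 22 members, Tnfrsf13b and Tnfrsf13c, and 545 of 12229 genes. The median log2 fold change of the members was 0.61, 0.44 and 0.13 in these comparisons, and that of all genes was 0.04, 0.06 and 0.09. Across the 4 comparisons, which share no library, 19 of the 26 members tested in any passed at least once, 12 higher and 7 lower, and 0 passed in both directions. Of 15571 genes tested in any, 61.2% passed at least once, 33.7% higher and 27.8% lower, and 0.328% passed in both directions. Tnfrsf13b, Tnfrsf13c and Tnfrsf21 were lower in T cells, and Tnfrsf25 and Tnfrsf26 higher, in 3 of the 4. Those are 5 of the 26, and 19.4% of all genes passed in 1 direction at least 3 times, a like share.

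**Figure D2:**
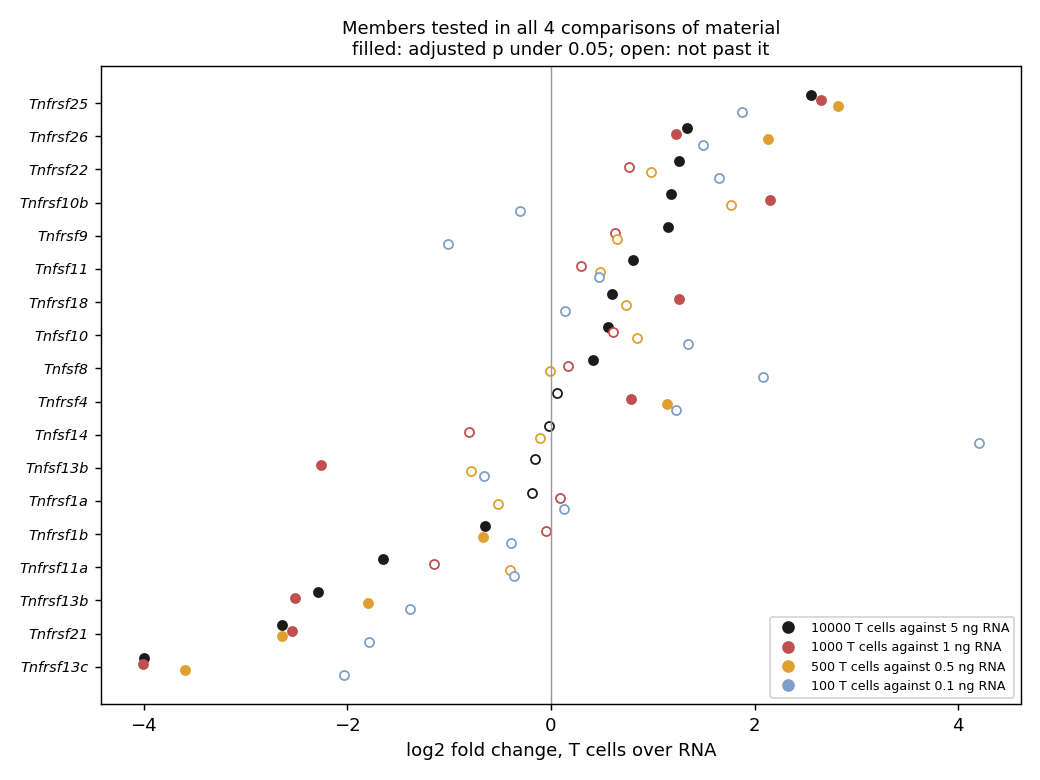
Log2 fold change, T cells over RNA (x axis), of the 18 members tested in all 4 comparisons of material, with filled points for an adjusted p under 0.05 by edgeR. Points for Tnfrsf13c, Tnfrsf13b, Tnfrsf21, Tnfrsf1b, Tnfrsf11a and Tnfsf13b lie left of 0 in all 4. Those for Tnfrsf25, Tnfrsf26, Tnfrsf22, Tnfrsf4, Tnfrsf18, Tnfsf10 and Tnfsf11 lie right of 0 in all 4. The 100-cell comparison has open points throughout.

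Across all libraries, 4 of the 31 members had T cell and RNA values that did not overlap: all 12 T cell libraries lay above all 11 RNA libraries for Tnfrsf25 and Tnfrsf26, and below them for Tnfrsf13b and Tnfrsf13c. Of the 21931 genes with a count 5.95% were separated in this way. The overlap of Tnfrsf21 rested on replicate 3 of the 100-cell group, at 31.9 CPM. The other T cell libraries held at most 13.5 CPM of it, and the RNA libraries at least 20.7 CPM. The share of all genes without replicate 3 was not counted.

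**Figure D3:**
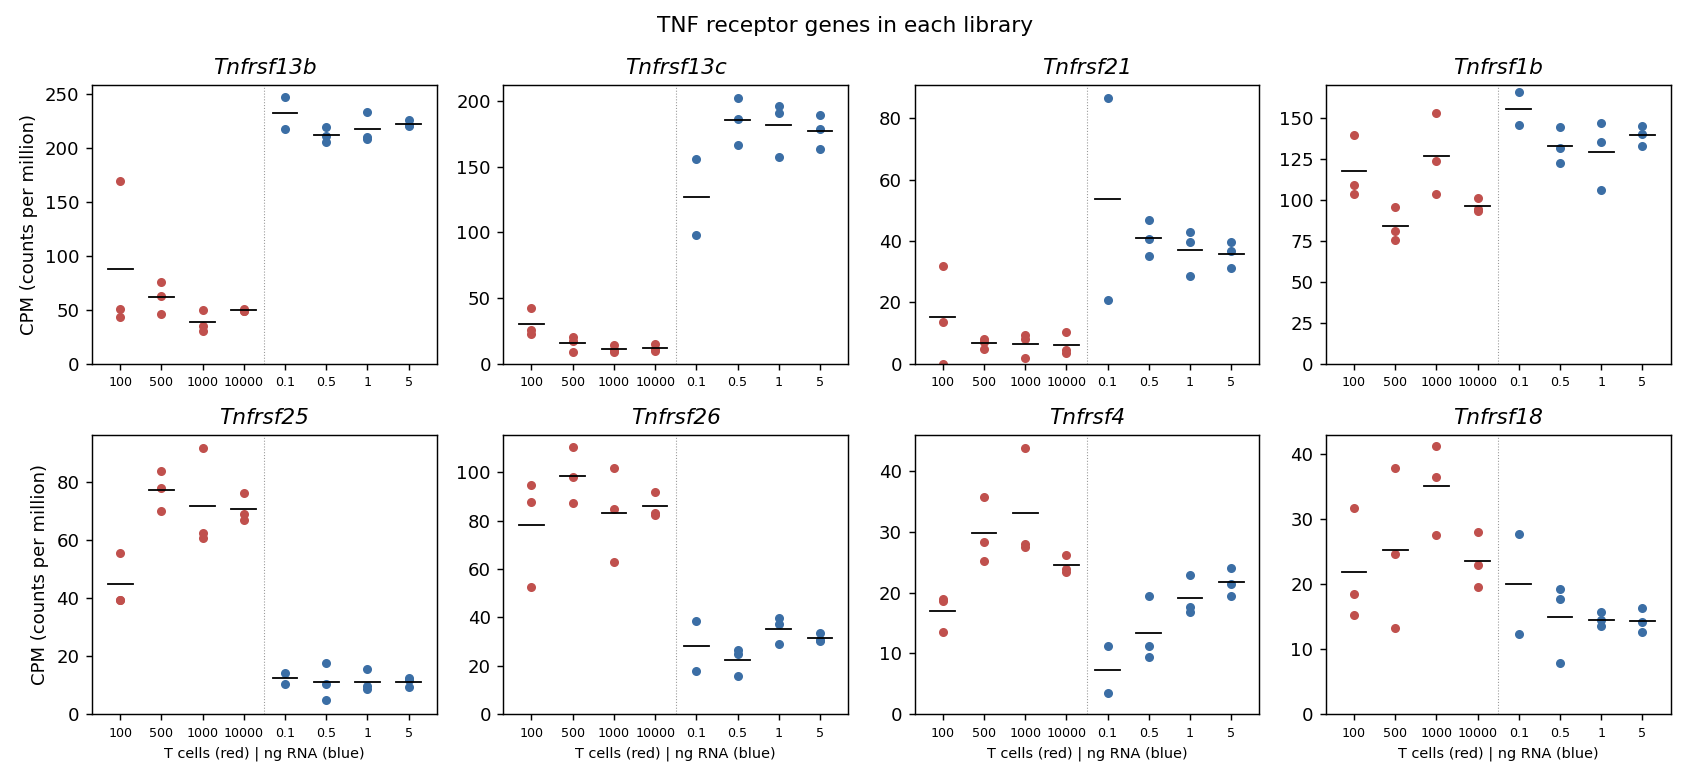
CPM of 8 receptor genes in each library (points) with the group mean (line), by number of T cells (red) and ng of RNA (blue). Tnfrsf13b and Tnfrsf13c lie lower in every T cell library than in every RNA library, Tnfrsf25 and Tnfrsf26 higher, and the highest T cell point of Tnfrsf13b, at 169 CPM, is replicate 3 of the 100-cell group.

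All 3 receptors of BAFF and APRIL, Tnfrsf13c, Tnfrsf13b and Tnfrsf17, were lower at 10000 T cells than in 5 ng of RNA. Tnfrsf13c encodes the BAFF receptor, which keeps mature B cells alive, and Tnfrsf13b encodes TACI, a B cell receptor for both BAFF and APRIL. Tnfrsf13c stood at 11.2, 9.92 and 14.99 CPM in the 10000-cell libraries and 163, 189.5 and 179 CPM in the 5 ng libraries. It was lower in T cells by edgeR (log2 fold change -4.00, SE 0.129, adjusted p = 1.87e-36), and the groups did not overlap. In the 1000-cell libraries it stood at 10.6, 9.21 and 14.4 CPM against 191, 196 and 157 CPM in 1 ng, a log2 fold change of -4.01 (SE 0.188). In the 500-cell libraries it stood at 20.1, 17.1 and 8.999 CPM against 187, 203 and 166 CPM in 0.5 ng, a log2 fold change of -3.59 (SE 0.225). The 100-cell libraries held 22.9, 25.96 and 42.5 CPM and the 0.1 ng libraries 97.8 and 156 CPM. That difference, -2.03 on the log2 scale (SE 0.452), did not pass in edgeR (adjusted p = 0.173), although the values again did not overlap.

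Tnfrsf13b stood at 50.8, 48.8 and 48.5 CPM in the 10000-cell libraries and 221, 226 and 221 CPM in the 5 ng libraries. The groups did not overlap, and it was lower in T cells by edgeR (log2 fold change -2.28, SE 0.0866, adjusted p = 1.28e-32). It was lower at 1000 cells, with 30.5, 49.4 and 34.8 CPM against 209.7, 233 and 209 CPM (log2 fold change -2.51, SE 0.153). At 500 cells it held 46.5, 62.5 and 75.6 CPM against 211, 206 and 219.8 CPM (log2 fold change -1.80, SE 0.164). At 100 cells replicates 1 and 2 held 50.9 and 43.3 CPM. Replicate 3, with high marker sums of B cells and several other cell types, held 169 CPM. The 0.1 ng libraries held 218 and 248 CPM. With replicate 3 the difference of -1.38 did not pass (adjusted p = 0.275). Without it the log2 fold change was -2.28 for Tnfrsf13b (adjusted p = 0.00761) and -2.35 for Tnfrsf13c (adjusted p = 0.0347), and both passed in edgeR.

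Both receptors and the B cell markers were lower in T cells than in RNA, though not by the same share. Replicates 1 and 2 of the 100-cell group had lower marker sums than the 10000-cell libraries and held more Tnfrsf13c, from 44 and 48 counts. That step of input did not pass in edgeR (adjusted p = 0.251), and the part of B cells in it was not tested. The 9 marker genes summed to between 1175 and 1332 CPM at 10000 T cells and between 26447 and 26840 CPM in 5 ng of RNA. As a percent of that sum, Tnfrsf13b lay at 0.822, 0.860 and 1.19% (lowest, median and highest of 11 RNA libraries) and at 1.46, 4.16 and 5.41% in the 12 T cell libraries. The lowest of the T cell values was replicate 3 of the 100-cell group, and without it the lowest was 2.74%. Every T cell library thus held more Tnfrsf13b per B cell marker transcript than any RNA library. Tnfrsf13c lay at 0.449, 0.717 and 0.844% of the sum in RNA and at 0.368, 1.04 and 2.50% in T cells, which overlapped. Its lowest T cell value was again replicate 3 of the 100-cell group, and without it the lowest was 0.612%, still within the range of the RNA. The ratio of Tnfrsf13b to Tnfrsf13c counts was 1.02, 1.23 and 2.22 in RNA and 1.67, 3.45 and 8.40 in T cells. These ratios were formed after the values were seen and carry no test.

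**Figure D4:**
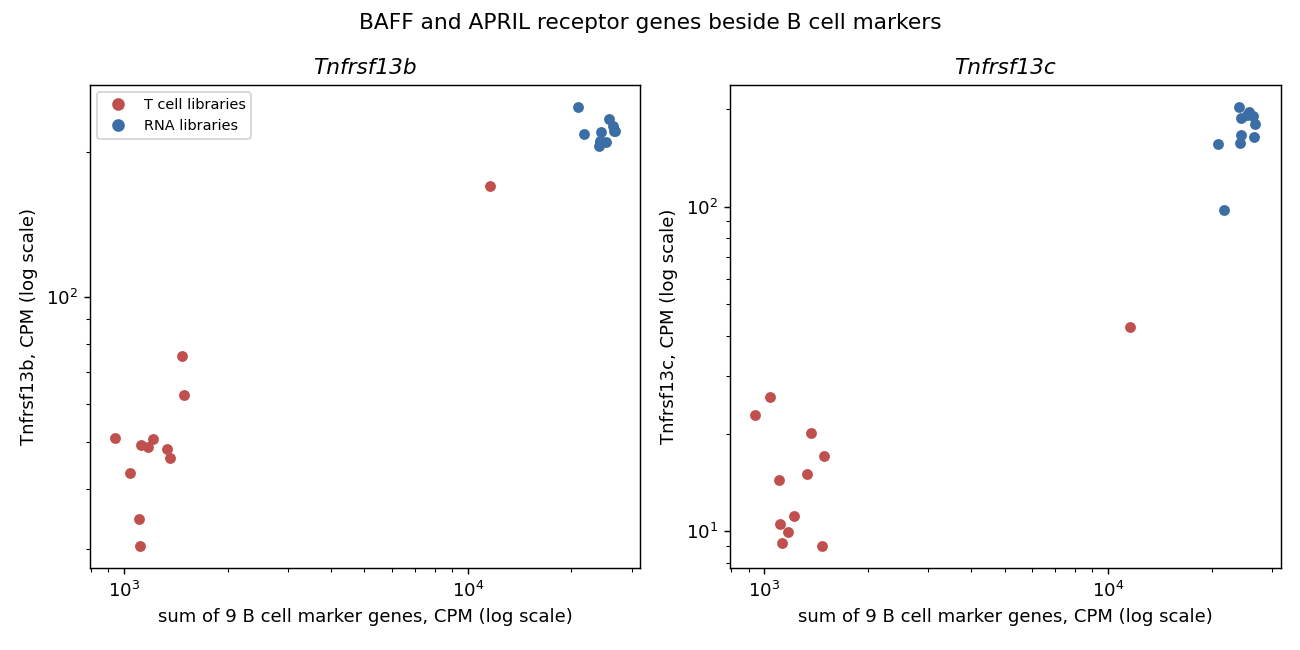
CPM of Tnfrsf13b and Tnfrsf13c (y axes, log scale) against the summed CPM of 9 B cell marker genes (x axes, log scale), with 1 point per library for 12 T cell (red) and 11 RNA (blue) libraries. The T cell point near 11572 CPM on the x axis is replicate 3 of the 100-cell group, which lies between the other 11 T cell libraries and the RNA.

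Upstream sequences of 4 members are shown. Tnfrsf13c and Tnfrsf13b were lower, and Tnfrsf25 and Tnfrsf9 higher, at 10000 T cells than in 5 ng of RNA. Other members called in that comparison are not shown. They give the 250 bases before the RefSeq start on GRCm38.p6, 5′ to 3′ on the gene's own strand, and 24 of the 31 members had such a window. RefSeq gives 2 starts each for Tnfrsf25 and Tnfrsf9, and the window shown is the one with a match. Their other windows, chr4:152116093-152116342 for Tnfrsf25 and chr4:150919905-150920154 for Tnfrsf9, hold no match to the motifs searched. Capitals mark matches, on either strand, to a kappaB-type motif (GGG, any 2 bases, then TTTCC) or to a RUNX-type motif (TGTGGT), and TATAAA was also searched.

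Tnfrsf13c, chr15:82224381-82224630, minus strand: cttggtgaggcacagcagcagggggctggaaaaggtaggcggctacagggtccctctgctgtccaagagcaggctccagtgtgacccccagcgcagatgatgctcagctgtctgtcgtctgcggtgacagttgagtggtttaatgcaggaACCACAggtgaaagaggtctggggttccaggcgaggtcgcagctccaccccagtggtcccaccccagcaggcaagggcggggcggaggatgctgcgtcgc

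Tnfrsf13b, chr11:61126505-61126754, plus strand: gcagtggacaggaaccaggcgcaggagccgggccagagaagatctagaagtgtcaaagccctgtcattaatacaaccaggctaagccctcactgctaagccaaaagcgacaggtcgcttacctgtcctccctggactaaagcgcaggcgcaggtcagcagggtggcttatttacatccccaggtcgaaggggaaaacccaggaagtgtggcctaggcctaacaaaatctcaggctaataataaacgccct

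Tnfrsf25, chr4:152115684-152115933, plus strand: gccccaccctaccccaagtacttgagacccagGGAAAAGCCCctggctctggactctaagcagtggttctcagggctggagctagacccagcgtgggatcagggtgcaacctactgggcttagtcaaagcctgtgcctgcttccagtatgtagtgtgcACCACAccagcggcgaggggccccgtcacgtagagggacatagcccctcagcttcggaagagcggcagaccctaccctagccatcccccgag

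Tnfrsf9, chr4:150927749-150927998, plus strand: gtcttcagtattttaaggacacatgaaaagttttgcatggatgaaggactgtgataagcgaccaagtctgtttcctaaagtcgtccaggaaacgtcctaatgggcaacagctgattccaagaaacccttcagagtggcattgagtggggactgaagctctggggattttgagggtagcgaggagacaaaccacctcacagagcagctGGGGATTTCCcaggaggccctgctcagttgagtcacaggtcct

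The Tnfrsf9 match to the kappaB-type motif, GGGGATTTCC, ends 34 bases before the start, and that of Tnfrsf25, on the other strand as GGAAAAGCCC, ends 209 bases before it. Tnfrsf25 and Tnfrsf13c each hold ACCACA, the reverse complement of TGTGGT. The Tnfrsf13b window holds no match to the 3 motifs. Of 32851 windows of the same length 1.41% matched the kappaB-type motif, 14.0% the RUNX-type motif and 12.4% TATAAA. Of the members' 28 windows 2, 3 and 4 matched. Tnfrsf25 and Tnfrsf9, both shown, were the only members with a kappaB-type match, so the windows shown do not stand for the members called higher in T cells. A match describes letters and is not evidence of binding.

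Tnfrsf17 encodes BCMA, a receptor of plasma cells, and it was scarce in both materials. It stood at 0.558, 1.10 and 0.588 CPM in the 10000-cell libraries and 2.05, 4.14 and 2.78 CPM in the 5 ng libraries, and it was lower in T cells by edgeR (log2 fold change -2.07, SE 0.696, adjusted p = 0.00926). At 500 cells it had 2 counts in all, against 44 in 0.5 ng, a ratio of 12.9 (95% interval 3.36 to 109.6, counting error only). The 6 plasma cell markers summed to between 100.1 and 109.9 CPM at 10000 cells and between 2151 and 2248 CPM in 5 ng. At 500 cells they summed to between 442 and 523 CPM, and in 0.5 ng to between 2338 and 2461 CPM. Their part in these results was not tested. Tnfrsf17 held 0, 1.47 and 0.799 CPM at 1000 cells, 0, 0.777 and 0 CPM at 500 and 0, 0 and 1.06 CPM at 100. In RNA Tnfrsf17 values were 3.14, 0 and 0.546 CPM in 1 ng, 6.35, 0.946 and 3.78 CPM in 0.5 ng and 0 and 3.45 CPM in 0.1 ng. Tnfrsf17 values in T cells overlapped with the paired RNA at 1000 and 100 and lay wholly below it at 500 cells. Its counts were too few for a test at these inputs.

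The ligands of these receptors were low. Tnfsf13b, which encodes BAFF, stood at 7.53, 5.51 and 2.65 CPM in the 10000-cell libraries and 6.72, 4.54 and 5.06 CPM in the 5 ng libraries, overlapping ranges, and did not pass (log2 fold change -0.16, SE 0.428). It was lower at 1000 cells, where 1.69, 0.737 and 1.998 CPM stood against 3.14, 4.91 and 13.4 CPM in 1 ng (log2 fold change -2.26, SE 0.753, adjusted p = 0.019 by edgeR). Without replicate 2 of the 1000-cell group that call was lost (adjusted p = 0.0804), as it was with the replicate number as a block (adjusted p = 0.0652), and over the alternatives the adjusted p ran from 0.0128 to 0.0804. At 500 cells it held 4.47, 2.33 and 2.25 CPM against 5.86, 2.13 and 7.56 CPM in 0.5 ng, and the 100-cell libraries held 7.28, 1.08 and 10.6 CPM. Its replicates were uneven in 0.1 ng, with 20.4 CPM in replicate 1 and 0 in replicate 2. Tnfsf13, which encodes APRIL, had a count in 2 of 12 T cell and 5 of 11 RNA libraries, and reached at most 1.69 CPM. About 60.0% of its exon bases lie within Tnfsfm13, a read-through gene that is a row of its own in the table, so its counts are uncertain.

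Of 6 costimulatory receptor genes, Tnfrsf25, Tnfrsf9 and Tnfrsf18 were higher at 10000 T cells than in 5 ng, and Tnfrsf4, Tnfrsf8 and Tnfrsf14 did not pass there. Tnfrsf25 encodes DR3, the receptor for TL1A on T cells, and it had the highest log2 fold change of the 25 tested members. It stood at 66.9, 76.4 and 69.1 CPM in the 10000-cell libraries and 11.7, 12.5 and 9.36 CPM in the 5 ng libraries (log2 fold change 2.55, SE 0.166, adjusted p = 5.7e-21 by edgeR). At 1000 cells it held 91.8, 60.8 and 62.3 CPM against 15.5, 9.60 and 8.46 CPM (log2 fold change 2.65, SE 0.263), and at 500 cells 70.1, 78.1 and 83.7 CPM against 10.3, 4.96 and 17.6 CPM (2.82, SE 0.334). At 100 cells it held 55.6, 39.5 and 39.4 CPM against 14.3 and 10.4 CPM, which did not overlap. The lowest T cell library still exceeded the highest RNA library, 39.4 against 17.6 CPM. Its ligand gene Tnfsf15 reached at most 8.32 CPM in a T cell library and 2.24 CPM in RNA.

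Tnfrsf9 encodes CD137, a receptor induced on activated T cells. It stood at 32.1, 20.4 and 27.6 CPM in the 10000-cell libraries and 9.50, 11.3 and 12.4 CPM in the 5 ng libraries, and it was higher in T cells by edgeR (log2 fold change 1.15, SE 0.227, adjusted p = 1.54e-05). That call was made at the largest input and not at the others: the log2 fold change was 0.63 (SE 0.386) at 1000 cells, 0.65 (SE 0.484) at 500 and -1.01 (SE 1.28) at 100. Tnfrsf9 held 14.8, 12.2 and 20.8 CPM at 1000 cells, 7.15, 23.7 and 23.8 CPM at 500 and 1.04, 6.49 and 10.9 CPM at 100. In RNA Tnfrsf9 values were 12.1, 7.59 and 10.9 CPM in 1 ng, 14.2, 7.33 and 13.2 CPM in 0.5 ng and 8.15 and 17.3 CPM in 0.1 ng. Tnfrsf9 values in T cells overlapped with the paired RNA at 500 and 100 and lay wholly above it at 1000 cells. The overlap at 100 cells rested on replicate 3, and without it the log2 fold change was -1.71 (SE 1.49, adjusted p = 0.597 by edgeR). All 3 libraries of 100 cells lay below those of 10000 cells. Its ligand gene Tnfsf9 lay at 0, 2.32 and 6.91 CPM over the 12 T cell libraries and 0, 2.19 and 4.08 CPM over the 11 RNA libraries (lowest, median and highest).

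Tnfrsf18 and Tnfrsf4, which encode GITR and OX40 of activated and regulatory T cells, are neighbours in the genome. About 27.2% of the exon bases of Tnfrsf18 overlap Gm16008 on the opposite strand. Whether counting used strand is not given, so Tnfrsf18 counts may include reads of that gene. Tnfrsf18 stood at 22.9, 19.6 and 27.9 CPM in the 10000-cell libraries and 16.2, 12.5 and 14.2 CPM in the 5 ng libraries (log2 fold change 0.60, SE 0.219, adjusted p = 0.0166 by edgeR). That call was lost without 10000-cell replicate 3 (adjusted p = 0.131) or 5 ng replicate 2 (adjusted p = 0.0810), and over its alternatives the adjusted p ran from 0.00392 to 0.131. At 1000 cells it held 27.5, 36.5 and 41.2 CPM against 13.4, 15.6 and 14.5 CPM and was higher (log2 fold change 1.26, SE 0.279, adjusted p = 0.000732). At 500 cells, 24.6, 13.2 and 37.8 CPM stood against 17.6, 19.1 and 7.83 CPM, and at 100 cells 31.7, 18.4 and 15.2 CPM stood against 12.2 and 27.6 CPM. Neither of those differences passed. Tnfrsf4 stood at 23.98, 23.4 and 26.2 CPM in the 10000-cell libraries and 21.5, 19.5 and 24.2 CPM in the 5 ng libraries, which overlapped, and did not pass there (log2 fold change 0.06, SE 0.193). Tnfrsf4 was higher at 1000 cells, with 27.5, 27.99 and 43.95 CPM against 16.8, 17.6 and 22.9 CPM (log2 fold change 0.79, SE 0.281, adjusted p = 0.0277). It was higher at 500 cells too, with 35.7, 25.2 and 28.3 CPM against 11.2, 19.4 and 9.45 CPM (log2 fold change 1.14, SE 0.376, adjusted p = 0.0203). The call at 1000 cells was lost without 1000-cell replicate 3 or without 1 ng replicate 1 or 2 (adjusted p 0.185, 0.103 and 0.0906). The call at 500 cells was lost without 500-cell replicate 1 or 3 or 0.5 ng replicate 1 or 3 (adjusted p 0.0964, 0.0548, 0.0774 and 0.0921). The 100-cell libraries held 13.5, 18.9 and 18.6 CPM. In RNA, Tnfrsf4 held 11.2 and 3.45 CPM at 0.1 ng, below all 3 libraries of 5 ng. Foxp3 and 4 other regulatory T cell markers summed to between 279 and 307 CPM at 10000 cells and between 105 and 128 CPM in 5 ng, and their part in these results was not tested.

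Tnfsf8 encodes CD30 ligand, and per kilobase it had the highest mean of the ligand members in both groups of largest input. It stood at 62.2, 56.2 and 56.7 CPM in the 10000-cell libraries and 39.8, 45.8 and 36.04 CPM in the 5 ng libraries, and it was higher in T cells by edgeR (log2 fold change 0.42, SE 0.136, adjusted p = 0.0072). The call was lost without 10000-cell replicate 1 (adjusted p = 0.0583) or 5 ng replicate 3 (adjusted p = 0.0643), within a range of 0.000536 to 0.0643 over the alternatives. Its log2 fold change was 0.17 (SE 0.224) at 1000 cells and -0.01 (SE 0.247) at 500, and neither passed. Tnfsf8 held 42.3, 46.8 and 43.95 CPM at 1000 cells, 41.98, 52.4 and 40.5 CPM at 500 and 44.7, 86.5 and 73.9 CPM at 100. In RNA Tnfsf8 values were 36.3, 30.1 and 51.6 CPM in 1 ng, 42.3, 39.2 and 53.2 CPM in 0.5 ng and 4.08 and 28.8 CPM in 0.1 ng. Tnfsf8 values in T cells overlapped with the paired RNA at 1000 and 500 and lay wholly above it at 100 cells. At 100 cells the difference did not pass in edgeR either (adjusted p = 0.271). Tnfrsf8, which encodes CD30, stood at 3.07, 5.24 and 4.70 CPM in the 10000-cell libraries and 4.82, 3.47 and 2.78 CPM in the 5 ng libraries. Tnfrsf8 held 0.423, 1.47 and 2.40 CPM at 1000 cells, 1.79, 5.44 and 8.55 CPM at 500 and 19.2, 2.16 and 10.6 CPM at 100. In RNA Tnfrsf8 values were 1.34, 3.57 and 4.64 CPM in 1 ng, 1.95, 7.09 and 2.43 CPM in 0.5 ng and 16.3 and 12.7 CPM in 0.1 ng. Tnfrsf8 values in T cells overlapped with the paired RNA at 1000, 500 and 100 cells. It passed in none of the comparisons by edgeR.

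Tnfsf14 encodes LIGHT, a ligand of HVEM, and it did not pass in edgeR between the materials. It stood at 13.7, 21.5 and 14.99 CPM in the 10000-cell libraries and 16.5, 17.6 and 13.2 CPM in the 5 ng libraries (log2 fold change -0.02, SE 0.236). At 100 cells it held 11.4, 34.6 and 13.6 CPM against 2.04 and 0 CPM in 0.1 ng. That difference of 4.20 (SE 1.51) had an adjusted p of 0.262 in edgeR and 0.0430 in DESeq2. Tnfsf14 held 10.6, 9.58 and 5.99 CPM at 1000 cells, 8.04, 3.11 and 12.6 CPM at 500 and 11.4, 34.6 and 13.6 CPM at 100. In RNA Tnfsf14 values were 22.2, 12.95 and 10.1 CPM in 1 ng, 16.1, 4.26 and 4.86 CPM in 0.5 ng and 2.04 and 0 CPM in 0.1 ng. Tnfsf14 values in T cells overlapped with the paired RNA at 1000 and 500 and lay wholly above it at 100 cells. Tnfrsf14, which encodes HVEM, stood at 3.07, 4.69 and 2.94 CPM in the 10000-cell libraries and 2.92, 3.87 and 4.43 CPM in the 5 ng libraries. Tnfrsf14 held 2.54, 6.998 and 7.99 CPM at 1000 cells, 5.36, 0 and 4.50 CPM at 500 and 9.36, 5.95 and 15.95 CPM at 100. In RNA Tnfrsf14 values were 2.46, 2.01 and 0.273 CPM in 1 ng, 1.95, 0 and 2.70 CPM in 0.5 ng and 1.02 and 10.4 CPM in 0.1 ng. Tnfrsf14 values in T cells overlapped with the paired RNA at 500 and 100 and lay wholly above it at 1000 cells, where counts were too few for a test. Tnfsf4, the OX40 ligand gene, had 0, 10 and 8 counts at 500 cells and 0 in all 3 libraries of 0.5 ng. Its mean at 500 cells, 1.35 CPM per kilobase of exon, was below 1.93, the 95th percentile there of odorant and vomeronasal receptor genes, which are not known to act in the spleen and serve here as a gauge of background. No fold is given for a gene at that level against a group at 0. Its values were 0, 1.69 and 4.33 CPM over the 12 T cell libraries and 0, 0 and 2.04 CPM over the 11 RNA libraries. Tnfsf18, the GITR ligand gene, had 0, 2 and 24 counts at 100 cells. The 24 came from replicate 3, where marker sums of B cells and several other cell types were high. The 0.1 ng libraries had 0 counts of Tnfsf18. Without replicate 3 the 2 counts left at 100 cells are too few for a fold against a group at 0. With replicate 3 its mean of 1.20 CPM per kb was also below the background gauge of 2.46 at 100 cells.

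The receptors for TNF itself were abundant in both materials. Tnfrsf1a encodes the widely expressed receptor with a death domain, and Tnfrsf1b the receptor found mostly on blood and endothelial cells. Tnfrsf1b stood at 101, 93.2 and 94.7 CPM in the 10000-cell libraries and 133, 145 and 140.2 CPM in the 5 ng libraries, and it was lower in T cells by edgeR (log2 fold change -0.65, SE 0.0861, adjusted p = 2.78e-09). It was lower at 500 cells as well, with 75.5, 81.2 and 95.8 CPM against 131, 145 and 122 CPM (log2 fold change -0.67, SE 0.161, adjusted p = 0.00216). At 1000 cells it held 153, 103 and 123 CPM against 147, 135 and 106 CPM, which overlapped, and the log2 fold change was -0.05 (SE 0.146). Tnfrsf1a stood at 58.8, 58.99 and 50.9 CPM in the 10000-cell libraries and 55.7, 63.7 and 58.5 CPM in the 5 ng libraries, and it did not pass in any of the 4 comparisons. Its log2 fold changes were -0.19 (SE 0.124), 0.09 (SE 0.194), -0.52 (SE 0.234) and 0.13 (SE 0.496) from the largest input to the smallest. Tnfrsf1a held 54.1, 68.9 and 51.9 CPM at 1000 cells, 41.5, 53.2 and 41.4 CPM at 500 and 47.8, 49.8 and 37.5 CPM at 100. In RNA Tnfrsf1a values were 43.2, 60.5 and 59.5 CPM in 1 ng, 79.2, 50.4 and 64.3 CPM in 0.5 ng and 46.9 and 36.3 CPM in 0.1 ng. Tnfrsf1a values in T cells overlapped with the paired RNA at 1000, 500 and 100 cells. At 100 cells the overlap again rested on replicate 3, without which the log2 fold change was 0.26 (SE 0.562, adjusted p = 0.870 by edgeR). The 100-cell libraries held 139, 104 and 109 CPM of Tnfrsf1b against 166 and 146 CPM in 0.1 ng.

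All 3 receptors of the TRAIL axis were higher at 10000 T cells. TRAIL, encoded by Tnfsf10, kills cells through Tnfrsf10b, the mouse death receptor for it, and Tnfrsf22 and Tnfrsf23 encode decoy receptors. Tnfrsf22 stood at 30.4, 34.7 and 35.3 CPM in the 10000-cell libraries and 13.6, 11.5 and 13.8 CPM in the 5 ng libraries (log2 fold change 1.26, SE 0.200, adjusted p = 2.4e-07 by edgeR), and Tnfrsf23 stood at 6.97, 6.62 and 6.47 CPM in the 10000-cell libraries and 2.92, 1.60 and 2.66 CPM in the 5 ng libraries (log2 fold change 1.37, SE 0.486, adjusted p = 0.0139). These genes share 719 stretches of 50 bases, 17.3% of those in Tnfrsf22 and 18.0% of those in Tnfrsf23, so that the division of reads between them is uncertain. Their neighbour Tnfrsf26, the first gene of that run, stood at 83.4, 92.1 and 82.6 CPM in the 10000-cell libraries and 33.6, 30.03 and 30.7 CPM in the 5 ng libraries (log2 fold change 1.34, SE 0.126, adjusted p = 3.08e-14). It was higher at 1000 cells with 85.03, 102 and 62.7 CPM against 37.2, 29.03 and 39.8 CPM (log2 fold change 1.23, SE 0.201). At 500 cells it held 98.3, 111 and 87.3 CPM against 15.9, 26.5 and 24.8 CPM (2.13, SE 0.238). At 100 cells, 87.9, 94.6 and 52.6 CPM stood against 17.8 and 38.6 CPM. All 3 genes of the run were thus higher at 10000 cells. Tnfrsf22 held 25.8, 26.1 and 23.97 CPM at 1000 cells, 10.3, 22.5 and 34.6 CPM at 500 and 19.8, 40.02 and 28.4 CPM at 100. In RNA Tnfrsf22 values were 10.98, 12.3 and 21.3 CPM in 1 ng, 13.2, 7.33 and 13.2 CPM in 0.5 ng and 4.08 and 14.97 CPM in 0.1 ng. Tnfrsf22 values in T cells overlapped with the paired RNA at 500 and lay wholly above it at 1000 and 100 cells. None of these differences passed in edgeR (adjusted p 0.0583 at 1000, 0.0991 at 500 and 0.388 at 100 cells). Tnfrsf23 held 4.23, 2.21 and 4.40 CPM at 1000 cells, 5.36, 3.11 and 8.10 CPM at 500 and 3.12, 12.98 and 1.60 CPM at 100. In RNA Tnfrsf23 values were 1.34, 1.34 and 4.09 CPM in 1 ng, 2.93, 0 and 0 CPM in 0.5 ng and 0 and 13.8 CPM in 0.1 ng. Tnfrsf23 values in T cells overlapped with the paired RNA at 1000 and 100 and did not pass there. They lay wholly above it at 500 cells, where counts were too few for a test. The Tnfrsf23 call at 10000 cells was lost without 5 ng replicate 2 (adjusted p = 0.0710), within a range of 0.00519 to 0.071.

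Tnfrsf10b stood at 16.2, 10.5 and 10.3 CPM in the 10000-cell libraries and 6.58, 3.87 and 4.68 CPM in the 5 ng libraries (log2 fold change 1.18, SE 0.347, adjusted p = 0.00297 by edgeR). It was higher at 1000 cells too, with 9.31, 17.7 and 11.99 CPM against 2.24, 3.13 and 3.27 CPM (log2 fold change 2.16, SE 0.541, adjusted p = 0.00233). Tnfrsf10b held 9.31, 17.7 and 11.99 CPM at 1000 cells, 6.25, 9.32 and 11.7 CPM at 500 and 5.72, 1.08 and 2.13 CPM at 100. In RNA Tnfrsf10b values were 2.24, 3.13 and 3.27 CPM in 1 ng, 3.18, 3.55 and 1.08 CPM in 0.5 ng and 0 and 7.48 CPM in 0.1 ng. Tnfrsf10b values in T cells overlapped with the paired RNA at 100 and lay wholly above it at 1000 and 500 cells. At 500 cells the difference did not pass in edgeR (adjusted p = 0.0720). Tnfsf10 stood at 22.03, 20.1 and 21.8 CPM in the 10000-cell libraries and 11.4, 18.95 and 9.61 CPM in the 5 ng libraries (log2 fold change 0.57, SE 0.238, adjusted p = 0.0381), and it lost that call in 6 of 11 alternative analyses, with adjusted p over all 11 of 0.00405 to 0.238. These included leaving out any 10000-cell library, 5 ng replicate 1 or 5 ng replicate 3. Tnfsf10 held 24.1, 24.3 and 25.6 CPM at 1000 cells, 28.6, 17.1 and 25.2 CPM at 500 and 37.9, 36.8 and 49.7 CPM at 100. In RNA Tnfsf10 values were 11.7, 19.7 and 16.9 CPM in 1 ng, 11.2, 15.6 and 12.2 CPM in 0.5 ng and 11.2 and 21.9 CPM in 0.1 ng. Tnfsf10 values in T cells lay wholly above the paired RNA at 1000, 500 and 100 cells, but none of these differences passed in edgeR (adjusted p 0.120, 0.0966 and 0.343). The 100-cell values of Tnfsf10 lay above all 3 libraries of 10000 cells, but that input comparison did not pass (adjusted p = 0.257).

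RANK ligand, encoded by Tnfsf11, drives osteoclasts and lymph node formation through RANK, the product of Tnfrsf11a, and Tnfrsf11b encodes its soluble decoy, osteoprotegerin. The ligand and its receptor went in opposite directions. Tnfsf11 stood at 9.76, 11.03 and 10.9 CPM in the 10000-cell libraries and 5.85, 5.34 and 5.56 CPM in the 5 ng libraries (log2 fold change 0.81, SE 0.345, adjusted p = 0.0418 by edgeR), a call lost in 8 of 11 alternatives (adjusted p 0.0188 to 0.0974), among them leaving out any of the 6 libraries. Tnfsf11 held 9.31, 13.3 and 14.4 CPM at 1000 cells, 13.4, 8.54 and 18.00 CPM at 500 and 2.08, 12.4 and 8.24 CPM at 100. In RNA Tnfsf11 values were 8.51, 9.16 and 12.3 CPM in 1 ng, 8.80, 11.8 and 7.56 CPM in 0.5 ng and 3.06 and 8.06 CPM in 0.1 ng. Tnfsf11 values in T cells overlapped with the paired RNA at 1000, 500 and 100 cells. Tnfrsf11a stood at 3.90, 4.13 and 2.06 CPM in the 10000-cell libraries and 8.48, 12.9 and 8.09 CPM in the 5 ng libraries and was lower in T cells (log2 fold change -1.64, SE 0.391, adjusted p = 0.000267). Tnfrsf11a held 2.96, 4.79 and 1.20 CPM at 1000 cells, 7.15, 3.88 and 8.999 CPM at 500 and 19.2, 1.08 and 19.7 CPM at 100. In RNA Tnfrsf11a values were 10.5, 7.37 and 1.91 CPM in 1 ng, 10.02, 10.2 and 5.94 CPM in 0.5 ng and 15.3 and 19.6 CPM in 0.1 ng. Tnfrsf11a values in T cells overlapped with the paired RNA at 1000, 500 and 100 cells. Tnfrsf11b had 0, 6 and 17 counts at 10000 cells, most of them in 1 library, and 0 in 5 ng. Its mean at 10000 cells, 0.787 CPM per kb, was below the background gauge of 1.22 there, and no fold is given. Its lowest, median and highest values were 0, 2.25 and 10.3 CPM over the 12 T cell libraries and 0, 0 and 1.47 CPM over the 11 RNA libraries. Macrophage and monocyte markers, 9 in all, summed to between 289 and 300.1 CPM at 10000 cells and between 2998 and 3081 CPM in 5 ng, and their part in the Tnfrsf11a result was not tested.

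The TWEAK axis was near the lower limit. Tnfsf12, which encodes TWEAK, had 0 counts at 1000 cells and 27 in 1 ng, at least 5.41-fold lower in T cells when 3 counts over the group are taken as the floor, and a ratio of 10.2 (95% interval 2.63 to 87.9) separated 0.5 ng from 500 cells. Over all libraries Tnfsf12 lay at 0, 0 and 0.777 CPM over the 12 T cell libraries and 0, 1.64 and 4.94 CPM over the 11 RNA libraries. About 48.2% of its exon bases are shared with Tnfsfm13. Tnfrsf12a, the TWEAK receptor gene, stood at 4.46, 7.44 and 7.64 CPM in the 10000-cell libraries and 3.51, 1.60 and 3.03 CPM in the 5 ng libraries (log2 fold change 1.15, SE 0.482, adjusted p = 0.0381 by edgeR), a call lost in 6 of 11 alternatives (adjusted p 0.0213 to 0.165), among them leaving out replicate 2 or 3 of either group. Tnfrsf12a held 6.77, 0 and 6.79 CPM at 1000 cells, 8.93, 3.88 and 10.8 CPM at 500 and 0, 7.03 and 3.72 CPM at 100. In RNA Tnfrsf12a values were 0, 3.57 and 4.91 CPM in 1 ng, 2.69, 1.42 and 4.32 CPM in 0.5 ng and 0 and 3.45 CPM in 0.1 ng. Tnfrsf12a values in T cells overlapped with the paired RNA at 1000, 500 and 100 cells.

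Tnfrsf21 encodes death receptor DR6, and it was lower in T cells in 3 comparisons. It stood at 3.63, 10.5 and 4.41 CPM in the 10000-cell libraries and 31.1, 36.7 and 39.7 CPM in the 5 ng libraries (log2 fold change -2.64, SE 0.247, adjusted p = 2.55e-14 by edgeR). At 1000 cells it held 1.69, 9.21 and 7.99 CPM against 28.7, 42.9 and 39.8 CPM (log2 fold change -2.54, SE 0.384), and at 500 cells 8.04, 4.66 and 7.20 CPM against 40.8, 35.2 and 46.99 CPM (-2.64, SE 0.370). The 100-cell libraries held 13.5, 0 and 31.9 CPM. The highest of these was replicate 3, the library with high marker sums of B cells and several other cell types. The 2 libraries of 0.1 ng held 86.6 and 20.7 CPM and overlapped with that range only through replicate 3. Without it both values left, 13.5 and 0 CPM, lay below the RNA. The log2 fold change was -1.79 with it (adjusted p = 0.520) and -2.95 without it (SE 1.44, adjusted p = 0.296), and neither passed in edgeR. Tnfrsf19, which encodes TROY, stood at 2.23, 3.31 and 2.94 CPM in the 10000-cell libraries and 1.46, 1.47 and 2.02 CPM in the 5 ng libraries and did not pass. Tnfrsf19 held 1.69, 5.16 and 4.40 CPM at 1000 cells, 6.25, 2.72 and 2.70 CPM at 500 and 0, 5.41 and 2.66 CPM at 100. In RNA Tnfrsf19 values were 2.24, 0.447 and 2.18 CPM in 1 ng, 0, 7.33 and 4.32 CPM in 0.5 ng and 24.5 and 1.73 CPM in 0.1 ng. Tnfrsf19 values in T cells overlapped with the paired RNA at 1000, 500 and 100 cells. The highest Tnfrsf19 value came from 1 of the 2 libraries of 0.1 ng.

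Levels of different genes were compared per kilobase of exon (CPM per kb), since a longer transcript gives more reads. At 10000 T cells the order was led by Tnfrsf25 at 31.1 ± 2.17, Tnfrsf26 at 26.7 ± 1.63, Tnfrsf1b at 25.2 ± 1.08 and Tnfrsf1a at 21.7 ± 1.80 CPM per kb (SD, n = 3). The ranges of Tnfrsf26 and Tnfrsf1b overlapped, while Tnfrsf25 lay above both and Tnfrsf1a below both. Next came Tnfrsf4 at 17.97 ± 1.06, Tnfrsf13b at 17.4 ± 0.431, Tnfrsf18 at 15.4 ± 2.76 and Tnfsf8 at 15.3 ± 0.867, and Tnfrsf18 overlapped with each of the other 3. In 5 ng of RNA, Tnfrsf13c at 86.5 ± 6.49 and Tnfrsf13b at 78.5 ± 1.02 led, with ranges that met without overlapping, and every library of both lay above every library of the other members. They were followed by Tnfrsf1b at 36.5 ± 1.56, Tnfrsf1a at 22.9 ± 1.56 and Tnfrsf4 at 15.9 ± 1.71 CPM per kb. Tnfsf8, Tnfrsf26 and Tnfrsf18 came next at 10.6 ± 1.29, 9.78 ± 0.591 and 9.39 ± 1.21 and overlapped. Tnfrsf21 at 8.72 ± 1.06 and Tnfsf14 at 8.53 ± 1.26 had lower means, but their ranges overlapped with each other and with each of these 3. In RNA Tnfrsf25 and Tnfrsf9 followed at 4.92 ± 0.725 and 4.07 ± 0.538. In T cells Tnfrsf9 at 9.81 ± 2.16, Tnfsf14 at 9.05 ± 2.27 and Tnfrsf22 at 7.94 ± 0.634 overlapped, and Tnfrsf13c followed at 5.87 ± 1.29. The other members had means of at most 4.72 CPM per kb in T cells and 3.67 in RNA.

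The members above a background level were counted in each group. Genes of odorant and vomeronasal receptors, 1462 in the table and not known to act in the spleen, had a median of 0.602 CPM per kb at 10000 T cells and 0.0103 in 5 ng of RNA. Their 95th percentile was 1.22 and 0.147 CPM per kb. Above it stood 21 of the 31 members at 10000 T cells and 30 in 5 ng. The share of all genes above it was not counted, and the cut itself differed between the groups. Depth differed too, with 3401992 to 3627647 counts per library of 10000 T cells and 6841726 to 7908638 of 5 ng. Tnfsf15, at 0.562 CPM per kb in T cells and 0.289 in RNA, stood above the cut in RNA alone. These counts thus do not compare the members' levels between the materials. At or below it in T cells were Tnfrsf11a, Tnfrsf11b, Tnfrsf17, Tnfrsf19, Tnfsf12, Tnfsf13, Tnfsf13b, Tnfsf15, Tnfsf18 and Tnfsf4, and in RNA Tnfrsf11b. At 100 T cells 17 members stood above, at 500 cells 16 and at 1000 cells 19. In RNA 19 stood above at 0.1 ng, 26 at 0.5 ng and 30 at 1 ng. Among members called higher in T cells, Tnfrsf23 at 1.69 and Tnfrsf10b at 2.26 CPM per kb lay closest to that level, and the part of background in their calls was not tested. This gauge was chosen after the data were seen.

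**Figure D5:**
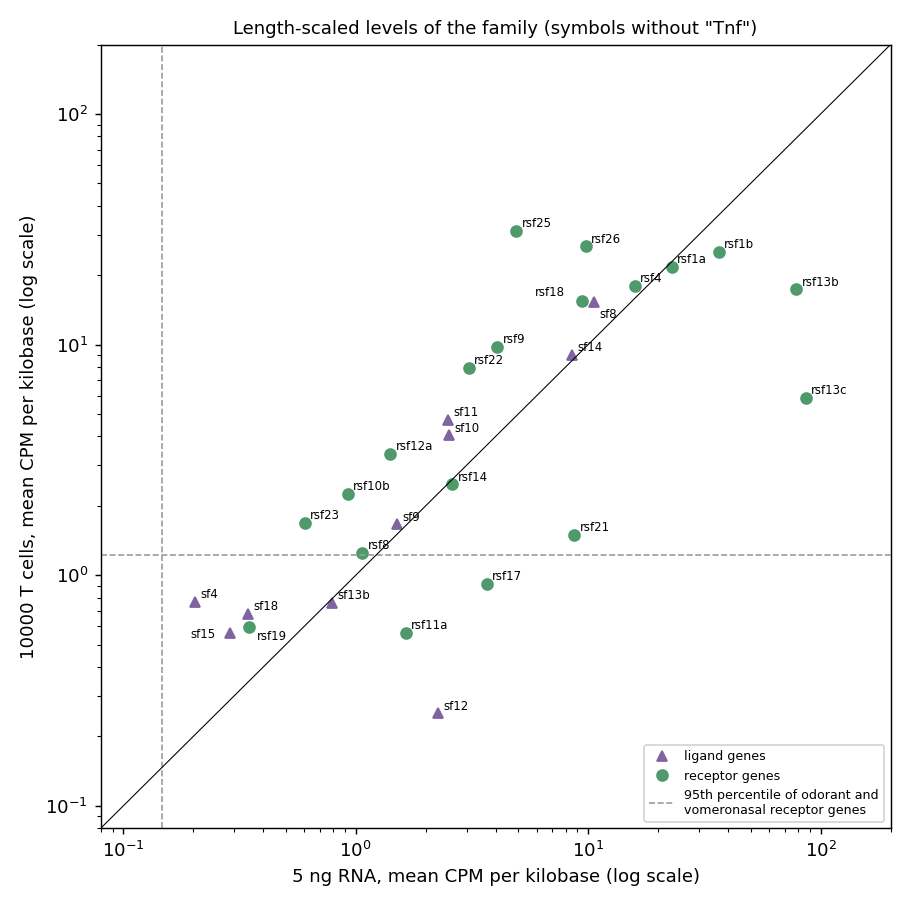
Mean CPM per kb of each member at 10000 T cells (y axis) and in 5 ng of RNA (x axis), log scales, n = 3 libraries each, with the line of equal levels and dashed lines at the 95th percentile of odorant and vomeronasal receptor genes (1.22 and 0.147). Points for Tnfrsf13c and Tnfrsf13b lie far to the right of the line and Tnfrsf25 above it, and Tnfsf13 and Tnfrsf11b are not drawn because each has 0 counts in 1 of the groups.

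Changing the input within a material moved no member past the threshold in edgeR. Of 23, 22 and 22 members tested, 0 passed between 100, 500 or 1000 T cells and 10000 T cells, where 0.0%, 3.21% and 3.27% of all genes passed. An unadjusted p under 0.05 was reached by 6, 1 and 5 members and by 12.0%, 16.6% and 15.4% of all genes. At 100 cells that was 0 of 14099 genes, with 1686 under an unadjusted p of 0.05, 349 called by DESeq2, and 357 called by edgeR without replicate 3 of the 100-cell group. The RNA series tested 26 members at 0.1, 0.5 and 1 ng against 5 ng, and again 0 passed, where 11.2%, 5.09% and 0.0238% of all genes passed. There 7, 3 and 1 members had an unadjusted p under 0.05, and so had 32.9%, 18.7% and 10.4% of all genes. DESeq2 called 1 of 15 members at 1000 cells, Tnfrsf1b at 0.40 (adjusted p = 0.0435), where 783 of 10334 genes passed. It called 3 of 26 at 0.1 ng, Tnfrsf8, Tnfrsf19 and Tnfsf14, where 2963 of 14750 genes passed. At the other 4 inputs it called 0 members. There 349 of 11460 genes passed at 100 cells, 1037 of 14114 at 500, 1376 of 13141 at 0.5 ng and 105 of 9982 at 1 ng. Without replicate 2 of the 1000-cell group edgeR too called Tnfrsf1b, at 0.53 (adjusted p = 0.0258), where 406 of 14951 genes passed. The comparisons of a series share their largest input, and 0.1 ng has 2 libraries. With replicate 1 or replicate 2 of 0.1 ng left out, 12 and 15 of 27 members passed, the lone library being assumed to vary like those of 5 ng. Of all genes 52.8% and 54.4% passed in these fits, so the members' counts are near the background. Tnfsf13b, Tnfrsf21 and Tnfrsf23 then passed in opposite directions, depending on which library was kept. Leaving out replicate 1 of 0.5 ng gave 2 calls among 27 members, Tnfrsf23 and Tnfsf14, where 815 of 13555 genes passed. Leaving out its replicate 2 gave 1 among 26, Tnfrsf4, where 687 of 13654 genes passed.

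Among the 6 members under an unadjusted p of 0.05 at 100 T cells, Tnfrsf9 and Tnfrsf10b had log2 fold changes of -2.07 (SE 0.662) and -2.06 (SE 0.745), and Tnfrsf25 of -0.67 (SE 0.241). Tnfsf10, Tnfrsf13c and Tnfrsf14 had 0.96 (SE 0.297), 1.34 (SE 0.408) and 1.54 (SE 0.682). In 0.1 ng, the members under an unadjusted p of 0.05 included Tnfsf14 at -3.91 (SE 0.952), Tnfrsf8 at 1.92 (SE 0.520), Tnfrsf4 at -1.60 (SE 0.551) and Tnfrsf1a at -0.56 (SE 0.212). Tnfsf14 and Tnfrsf4 had an unadjusted p under 0.05 in 0.5 ng as well, at -0.90 (SE 0.390) and -0.70 (SE 0.272). For the 6 members at 100 cells adjusted p ran from 0.251 to 0.416 by edgeR, and from 0.0564 to 0.439 without replicate 3 of that group. Without it the log2 fold change was 1.06 (SE 0.722) for Tnfrsf14 and -2.85 (SE 0.642) for Tnfrsf9.

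Whether the smallest input acted differently in T cells and in RNA was tested as an interaction. The steps compared, 10000 to 100 cells and 5 to 0.1 ng, are not matched in size. Tnfrsf13c was the only one of 26 tested members to pass by edgeR, where 1.14% of all genes passed. It went from 11.2, 9.92 and 14.99 CPM at 10000 cells to 22.9, 25.96 and 42.5 CPM at 100, and it went from 163, 189.5 and 179 CPM in 5 ng to 97.8 and 156 CPM in 0.1 ng. Neither step passed by itself. The difference between the steps was 1.94 on the log2 scale (SE 0.415, adjusted p = 0.0450), and it did not pass in 9 of 16 alternatives, over which the adjusted p ran from 0.00118 to 0.145. Leaving out any library of 10000 cells or of 5 ng ended the call. Without replicate 3 of the 100-cell group the difference was 1.69 and passed (adjusted p = 0.0165).

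Family genes under other symbols were taken from fixed lists. Of 7 ligand genes, 6 were tested between 10000 T cells and 5 ng, and 3 were higher in T cells and 0 lower, with a median log2 fold change of 0.06, where 56.0% of all genes passed, 28.7% higher and 27.3% lower. Cd40lg, the helper T cell ligand for CD40, had 76.00 ± 8.18 CPM at 10000 T cells and 14.04 ± 1.30 CPM in 5 ng of RNA (SD, n = 3 each), a difference of 2.32 (SE 0.156). Ltb, a lymphotoxin subunit, had 415 ± 17.8 CPM at 10000 T cells and 313 ± 5.70 CPM in 5 ng of RNA (SD, n = 3 each), a difference of 0.29 (SE 0.0541). All 8 receptor genes were tested, and 5 were higher and 2 lower against the same shares of all genes, with a median of 0.51. Cd27, a costimulatory receptor of naive T cells, had 298 ± 11.6 CPM at 10000 T cells and 71.3 ± 7.30 CPM in 5 ng of RNA (SD, n = 3 each), a difference of 1.95 (SE 0.0760). Cd40, the B cell and myeloid receptor for Cd40lg, had 4.04 ± 0.474 CPM at 10000 T cells and 67.9 ± 3.22 CPM in 5 ng of RNA (SD, n = 3 each), a difference of -4.17 (SE 0.206). Ltbr, the lymphotoxin beta receptor of myeloid and stromal cells, differed by -4.33 (SE 0.472). Fas differed by 0.56 (SE 0.185) and Relt by 0.46 (SE 0.125). The ectodysplasin gene Eda and its receptor genes Edar and Eda2r make up 1 of the 3 ligand and 2 of the 5 receptor calls, at 0.632, 1.16 and 0.978 CPM per kb in T cells. All 3 lay below the background gauge of 1.22 there, and the part of background in these calls was not tested.

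Of 36 TRAF, death domain and NF-kappaB genes that carry the signal onward, all tested, 10 were higher and 13 lower in 10000 T cells, with a median log2 fold change of -0.05 (0.03 over all genes). These counts are near those of all genes, of which 28.7% were higher and 27.3% lower. Tnfaip3, which encodes a ubiquitin-editing enzyme that restrains NF-kappaB, was higher by 1.51 (SE 0.0721), and Traf1 by 0.56 (SE 0.0680). Rel and Nfkb2, NF-kappaB subunits prominent in B cells, had log2 fold changes of -1.84 (SE 0.100) and -0.96 (SE 0.0736). Birc3, an inhibitor of apoptosis bound to TRAFs, and Nfkbie, an NF-kappaB inhibitor, had -1.41 (SE 0.0753) and -1.33 (SE 0.103). At 1000 cells against 1 ng, 5 ligand, 6 receptor and 36 signalling genes were tested, with 2, 1 and 6 higher and 0, 3 and 6 lower, where 20.1% of all genes were higher and 20.0% lower. At 500 cells against 0.5 ng, 5, 7 and 36 were tested, with 2, 3 and 6 higher and 0, 2 and 5 lower, where 19.0% and 18.1% of all genes were. At 100 cells against 0.1 ng 0 of 6, 7 and 35 passed by edgeR, where 0.0535% of all genes did.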

How the data were processed

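RNA was measured in 23 libraries. Per the submitters' processing notes, reads were handled with HISAT2 2.1.0 and featureCounts on the build mm8. The authors deposited 1 table of whole-number counts per gene symbol, with no normalization. Between 57.9% and 70.7% of a library's nonzero counts were even, so counts may not be independent molecules, and intervals and floors cover counting error only. Whether counting used strand is not given in the sources used here.

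Each comparison was fitted by itself in edgeR 4.0.16 (R 4.3.3): filterByExpr, TMM, quasi-likelihood test, Benjamini-Hochberg adjustment over all genes tested, threshold 0.05. The SE is the log2 fold change over the square root of F. The script was tested on simulated data. DESeq2 1.42.0, its size factors, library sizes alone, no filter, a replicate block and leaving out each library were the alternatives. Fold bounds use a floor of 3 counts per group. Exon lengths came from GENCODE M21 (GRCm38), where 99.6% of symbols had one, and promoter windows from RefSeq (GRCm38.p6). The submitters' build differs, so no coordinate is tied to the counts.

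Members, gene lists and tests were chosen with earlier results of these data known. Full values are given for members called in a comparison of material or with a group mean of 10 CPM or more, ordered by role, and ranges for the rest. Marker lists covered T, regulatory T, NK, B, plasma and dendritic cells, macrophages, neutrophils, erythroid cells, platelets and stroma.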

Additional observations from a re-analysis of the deposited data

Results flagged for a closer look

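Tnfrsf13c, the BAFF receptor gene, was flagged because the effect of the smallest input differed between the materials by a test of the difference itself. The change from 10000 to 100 T cells was 1.34 on the log2 scale (SE 0.408) and the change from 5 to 0.1 ng of RNA was -0.53 (SE 0.214), a difference of 1.94 (SE 0.415, adjusted p = 0.0450 by edgeR's quasi-likelihood test). These steps of input are not matched in size between the materials. All 3 libraries of 100 cells lay above all 3 of 10000 cells, and both libraries of 0.1 ng lay below all 3 of 5 ng. Replicate 3 of the 100-cell group had the highest T cell value, 42.5 CPM. In it 9 B cell markers summed to 11572 CPM, and marker sums of several other cell types were high too. Replicates 1 and 2 of that group, with marker sums of 941 and 1040 CPM, held 22.9 and 26.0 CPM. Both lay above every library of 10000 cells, where the marker sum lay between 1175 and 1332 CPM. The part of B cells in these values was not tested. Replicate 3 of the 100-cell group was singled out by its marker sums. Beyond it, groups of 3 or fewer libraries were not searched for single libraries that stand apart.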

How the results depend on the processing

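Of the 17, 9 and 7 members called at 10000, 1000 and 500 T cells against the paired RNA, 11, 7 and 6 kept their call in every alternative, and 0 reversed. The share of all called genes that did so was not counted, so this does not set the members apart. Leaving out 1 library gave 12 to 16, 7 to 10 and 6 to 9 called members, and the replicate block gave 15, 8 and 7. Of 28 same-numbered pairs of libraries 0 had a correlation of deviations over 0.1 (-0.0171 to 0.0196). Low correlations in groups this small cannot exclude a weak pairing by replicate number. Library sizes alone moved the split of called genes at 10000 cells from 4134 higher and 3939 lower to 4952 and 3252. Other counts moved as follows, and the cause was not tested. DESeq2 gave 2 members and 684 genes at 100 cells against 0.1 ng (0 and 7 in edgeR), 349 genes at 100, 1037 at 500 and 1 member and 783 genes at 1000 against 10000 cells (0, 439, 0 and 438 in edgeR). In RNA it gave 3 members and 2963 genes at 0.1 ng, 1376 genes at 0.5 ng and 105 at 1 ng against 5 ng (0, 1572, 639 and 3 in edgeR), and for the interaction 2 members and 1371 genes (1 and 194). DESeq2's size factors gave 3 genes at 100 cells against 0.1 ng. No filter gave 3 members and 696 genes there, 7 genes at 100 against 10000 cells, 42 genes at 1 ng and 0 members for the interaction, as did library sizes alone. The replicate block gave 4 members and 1161 genes at 100 cells against 0.1 ng and 2 genes at 100 against 10000 cells. It gave 392 genes at 0.1 ng, 33 at 1 ng, and 0 members and 19 genes for the interaction. Since 0.1 ng has no replicate 3, the block takes replicate 3 of the other group out of its comparisons with 100 cells and with 5 ng. Those counts are therefore not a check of pairing alone.

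Leaving out 1 library gave 0 to 2 members and 0 to 545 genes at 100 cells against 0.1 ng, where the highest counts were those without replicate 3 of 100 cells. It gave 0 to 357 genes at 100, 149 to 505 at 500, and 0 to 1 members and 181 to 411 genes at 1000 against 10000 cells. In RNA it gave 0 to 15 members and 0 to 8075 genes at 0.1 ng, 0 to 2 members and 172 to 815 genes at 0.5 ng, and 2 to 45 genes at 1 ng against 5 ng. For the interaction it gave 0 to 3 members and 11 to 1183 genes. Without length scaling the first 3 members at 10000 T cells ranked Tnfrsf1b, Tnfrsf26, Tnfrsf25. Depth limits the members with few counts, 6 of which were not tested at the largest inputs.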

Other observations

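The summed level of the 20 receptor genes separated the materials. It lay at 479, 530.0 and 613 CPM (lowest, median and highest) over the 12 T cell libraries and at 711, 754 and 791 CPM over the 11 RNA libraries. The highest T cell sum was replicate 3 of the 100-cell group, and the next was 580.0 CPM. Without Tnfrsf13b and Tnfrsf13c, the 18 other receptors summed to 401, 466 and 511 CPM in T cells and to 344, 359 and 424 CPM in RNA, the opposite order, with overlap. The 11 ligand genes summed to 94.8, 110.2 and 181 CPM in T cells and to 46.9, 88.3 and 113 CPM in RNA. These sums were formed after the values were seen and carry no test, and long genes weigh more in them than short ones.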
